A study of Mus musculus with 3 samples.

Results

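Collagen chains are the protein strands that assemble, 3 at a time, into the triple helices of the extracellular matrix. The genes described here are those whose symbol in the array annotation reads Col, a number, a, and a number, with Col4a1 and Col4a2 left out. There were 40 such genes among the 18193 genes with a probe set of their own, and 79 probe sets measured them, out of 34945 that name 1 gene. A probe set is a group of short probes against the same transcript. The rule uses no signal, but the chains were chosen with earlier results of these data known.

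The RNA came from mouse embryonic stem (ES) cells, self-renewing cells of the early embryo that can give rise to every tissue. All 3 cultures carried a conditional Pou5f1 knockout, which removes the pluripotency factor Oct3/4, and were labelled day 0, day 1 and day 2 of that knockout, with 1 array each. How the knockout was induced, which culture medium was used and whether feeder cells were present are not given in the sources used here, and no culture with intact Oct3/4 at the later days is analysed here. Loss of Oct3/4, time in culture and an inducing treatment therefore cannot be told apart, and with 1 array a day the files hold no replicates, so that no difference could be tested.

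Collagens differ in what they build. Fibrillar chains form the banded fibrils of tendon, bone, skin and cartilage, and fibril-associated chains decorate these fibrils. Type IV chains form the sheet of basement membranes, type VI chains form beaded microfibrils, type VII forms anchoring fibrils, and other chains span the cell membrane or carry endostatin at their end. In the early mouse embryo the matrix is mainly basement membrane, while most fibrillar collagens belong to mesenchyme and cartilage that form later.

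Values are MAS5 signals, linear fluorescence values in arbitrary units. Differences between days are given as differences of log2(signal + 55.9), where 55.9 is the signal below which 40% of all values on the 3 arrays lie, and serves as the mark of a dim probe set. The added constant understates the change of dim genes. A gene is read from its probe set with the highest mean signal, and a difference of at least 2-fold (1 on the log2 scale) is the size that is counted. Over all probe sets, the medians at day 0, day 1 and day 2 were 83.5, 92.5 and 87.6. The targeted gene, Pou5f1, had signals of 2400, 40.8 and 15.5 on these days, in the direction of the labels, though whether its probe set lies in the deleted part is not given. All 9 listed ES cell markers were at least 2-fold lower at day 2 than at day 0, and all 9 trophectoderm markers at least 2-fold higher. Of all genes, 4.3% were lower and 4.05% higher by as much. These lists were chosen with earlier results of these data known, so their counts are no test of the labels. In bulk RNA, fewer cells of a type and less RNA per cell cannot be told apart.

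Most collagen chains lay near or below the constant. Averaged over the 3 arrays, 23 of the 40 genes (57.5%) reached the constant, against 69.9% of all 18193 genes. Of the 79 probe sets, 14 were at or above the constant on every array and 42 on none. Col18a1 alone had a signal over 1000 on any array, and the highest signal of any other chain was 332, of Col5a1 at day 2. Probe sets differ in how strongly they bind, so signals place each gene against the constant and do not rank the amounts of RNA between genes. Col18a1 encodes the core of a basement membrane proteoglycan whose end is released as endostatin, an inhibitor of blood vessel growth.

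The upstream sequences of 3 genes are shown as examples, and no result on signals rests on them. They are Col18a1, the bright chain, with both starts in the RefSeq table, Col5a1, a chain above the constant on every array, and Col9a2, a chain that was lower at day 2. Each is the 250 bases before a start, 5′ to 3′ on the strand of the gene, from RefSeq on build GRCm38.p6. Capitals mark GGGCGG, the GC box bound by Sp factors, or its reverse complement. The windows are chr10:77166531-77166780 and chr10:77113706-77113955 (both minus strand) for Col18a1, chr2:27886175-27886424 (plus strand) for Col5a1 and chr4:121039316-121039565 (plus strand) for Col9a2.
Col18a1, upstream start: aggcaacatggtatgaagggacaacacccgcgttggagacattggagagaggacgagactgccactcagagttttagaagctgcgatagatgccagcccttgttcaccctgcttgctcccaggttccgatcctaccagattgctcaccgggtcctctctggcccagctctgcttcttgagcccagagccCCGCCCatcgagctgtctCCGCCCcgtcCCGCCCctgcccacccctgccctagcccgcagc
Col18a1, downstream start: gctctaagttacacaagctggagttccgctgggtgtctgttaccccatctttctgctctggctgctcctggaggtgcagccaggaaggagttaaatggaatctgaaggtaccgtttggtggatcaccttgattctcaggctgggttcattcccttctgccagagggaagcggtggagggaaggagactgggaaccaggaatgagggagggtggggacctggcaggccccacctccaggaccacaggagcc
Col5a1: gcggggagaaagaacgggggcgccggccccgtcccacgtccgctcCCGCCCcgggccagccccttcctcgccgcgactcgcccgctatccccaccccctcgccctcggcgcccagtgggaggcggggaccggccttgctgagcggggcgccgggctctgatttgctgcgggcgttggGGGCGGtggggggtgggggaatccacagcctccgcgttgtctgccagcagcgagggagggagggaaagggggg
Col9a2: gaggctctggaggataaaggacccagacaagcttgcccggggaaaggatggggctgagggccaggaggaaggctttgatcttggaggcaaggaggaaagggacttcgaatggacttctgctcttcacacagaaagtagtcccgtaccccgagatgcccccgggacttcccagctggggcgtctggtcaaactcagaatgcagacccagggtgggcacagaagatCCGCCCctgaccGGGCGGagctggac

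The upstream Col18a1 window holds 3 matches to GGGCGG on either strand and 12 CpG dinucleotides, and the downstream one holds 0 matches and 3 CpG. The Col5a1 window holds 2 matches and 28 CpG, with a GC content of 76.4%, and the Col9a2 window 2 matches and 9 CpG. The RefSeq table held 34 such windows for 31 of the 40 genes, and 20 of these windows (58.8%) contained GGGCGG on either strand, against 32.7% of all 32851 windows of the same length. The chains' windows were also richer in bases G and C (a median of 58.4%, against 52.4%) and in CpG (8.5, against 6), and the part of this in the count was not tested. TATAAA on either strand was in 5 of the 34 (14.7%), against 12.4% of all windows, and the octamer ATGCAAAT, the site that POU factors bind, in 2 (5.88%), of Col25a1 and Col3a1, against 1.6%. These matches describe the letters in the windows and do not show binding. Which Col18a1 start was used was not tested.

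**Figure D1:**
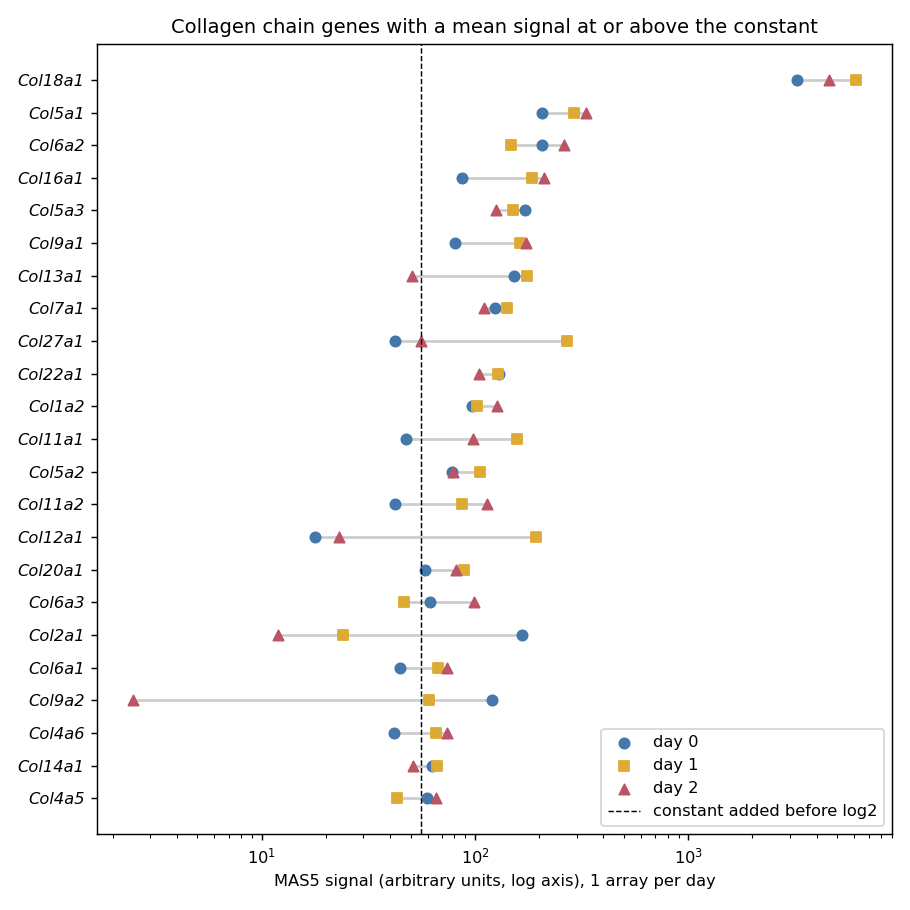
MAS5 signal on a log axis for the 23 collagen chain genes whose mean signal reached the constant of 55.9 (dashed line), with circles for day 0, squares for day 1 and triangles for day 2, 1 array per day. Col18a1 lies between 3234 and 6134, and no other chain passes 332.

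Signals of Col18a1 reached 3234 at day 0, 6134 at day 1 and 4572 at day 2. It was highest on the middle day and stayed above its day 0 level at day 2. Against day 0 the difference was 0.91 on the log2 scale (1.88-fold) at day 1 and 0.49 at day 2, and day 2 lay −0.42 from day 1. Its other probe set had signals of 3169, 5869 and 4611 and gave 0.88, 0.53 and −0.34 for these differences. Both probe sets of Col18a1 therefore gave the same order of days and neither passed 2-fold. For scale, where a gene had several probe sets with means over 4 times the constant, these differed among themselves by a pooled SD of 0.22 for day 1 against day 0 (9118 probe sets of 3548 genes). This spread covers probe error and leaves out that between cultures and hybridisations. Among the 12717 genes whose mean reached the constant, 6.29% differed from day 0 by at least as much as Col18a1 at day 1, and 32.7% at day 2.

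The basement membrane chains that the rule leaves out behaved otherwise in size. Col4a1 had a signal of 1061 on day 0, 2972 on day 1 and 4072 on day 2, and Col4a2 had 553, 1325 and 2245. Both were higher on each later day, and both passed 2-fold at day 1 (1.44 and 1.18) and at day 2 (1.89 and 1.92) against day 0. Primitive and parietal endoderm lay down basement membrane, and 12 of their markers were listed. At day 2 against day 0, 3 were at least 2-fold higher (Gata6 at 1.46, Dab2 at 1.33 and Foxa2 at 1.19) and 1 lower (Lama1 at −1.66). Of all genes, 4.05% were higher and 4.3% lower by as much. The median was 0.28 for the markers and 0.04 for all genes. Foxa2 was dim, with a mean of 40.8, below the constant. Gata4 at −0.43, Sox17 at −0.27 and Sox7 at 0.32 stayed within 2-fold. Lamb1 was at 0.94 and Lamc1 at −0.94. Over day 0, day 1 and day 2 the 12 markers summed to 10569, 14253 and 11504. Sparc alone, at 5972, 9357 and 6559, made up most of each sum, so the sums mainly follow that gene. Among 5 endothelial markers, 1 (Pecam1 at −2.17) was lower by 2-fold or more at day 2 against day 0, where 4.3% of all genes were. The others stayed within 2-fold there, with Tek at −0.75, Kdr at −0.26, Cdh5 at 0.14 and Tie1 at −0.0048. Pecam1 alone therefore does not stand for the list. Whether endoderm or endothelial cells were present, and their part in the collagen values, was not tested. None of the 40 chains was at least 2-fold higher at day 2. The difference between Col18a1 and these chains was not tested, since there is 1 array a day.

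**Figure D2:**
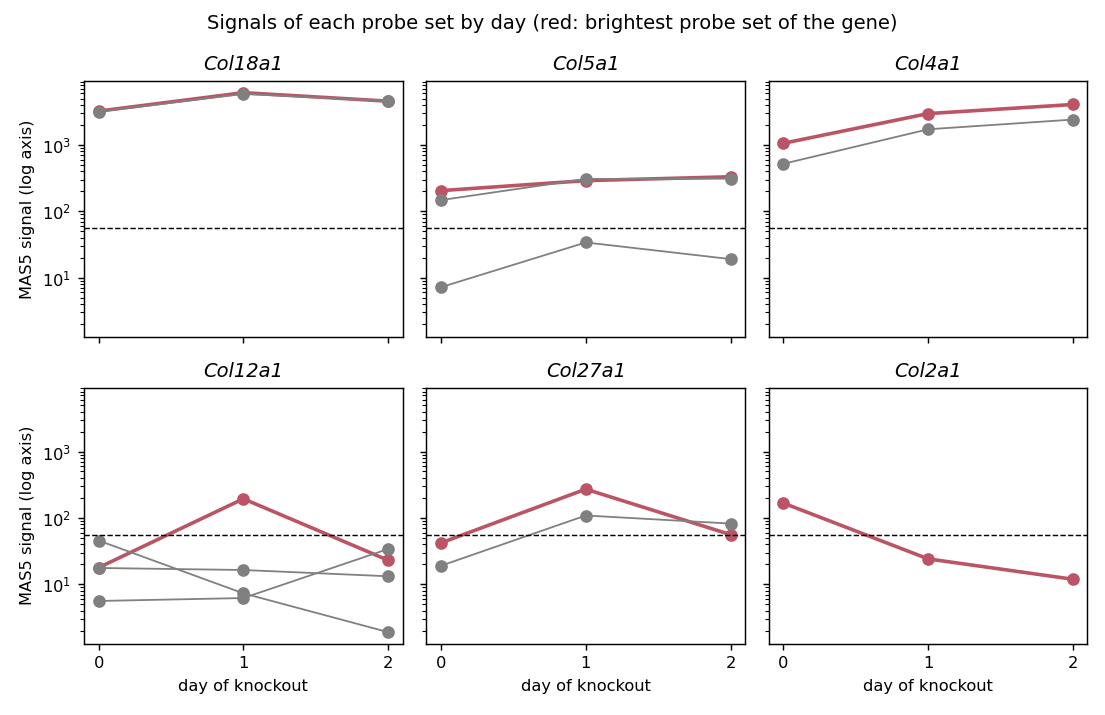
MAS5 signal (log axis) of every probe set of 6 genes by day of knockout, with the brightest probe set of each gene in red, the others in grey and the constant of 55.9 as a dashed line. The probe sets of Col18a1 and of Col4a1 run in parallel, while 3 of the 4 probe sets of Col12a1 stay below the constant on every day.

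At day 2, 0 of the 40 chains were higher than at day 0 by 2-fold or more and 2 were lower by as much, where 4.05% of all genes were higher and 4.3% lower. The lower ones were Col2a1 and Col9a2, 5% of the 40, a share near that of all genes. Col4a1 and Col4a2, which the rule leaves out, were both higher by 2-fold or more (1.89 and 1.92). The 0 for higher chains therefore depends in part on leaving them out. The median difference was 0.09 for the 40 chains and 0.04 for all genes. At day 1, 4 chains (Col12a1, Col27a1, Col11a1 and Col4a3) were higher than at day 0 by 2-fold or more and 1 (Col2a1) was lower by as much, against 2.07% and 2.02% of all genes. The median was 0.17 for the chains and 0.04 for all genes. At day 2 against day 1, 0 chains were higher by this size and 4 (Col12a1, Col27a1, Col13a1 and Col9a2) lower, against 1.76% and 2.28% of all genes, with medians of −0.16 for the chains and −0.0035 for all genes. These comparisons share arrays, so the chains that were higher at day 1 and lower at day 2 rest on the same day 1 value. Col9a2, 2.00-fold lower at day 2 than at day 1, was barely past the size.

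In all, 7 of the 40 genes (17.5%) passed 2-fold in at least 1 comparison, against 11.2% of all genes, and 33 stayed within 2-fold in each. The 11 genes at or above the constant on all 3 arrays (Col18a1, Col5a1, Col6a2, Col16a1, Col5a3, Col9a1, Col7a1, Col22a1, Col1a2, Col5a2 and Col20a1) were among these 33, a split that the requirement partly fixes, since a chain that falls below the constant cannot meet it. A difference within 2-fold, from 1 array a day, does not show that a gene was unchanged. Just above the constant the probe sets of a gene also scattered more. For day 2 against day 0 the pooled SD was 0.43 among probe sets with a mean from the constant to 4 times it, against 0.26 above that. Among probe sets with a mean below the constant it was 0.40, where the added constant shrinks differences.

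**Figure D3:**
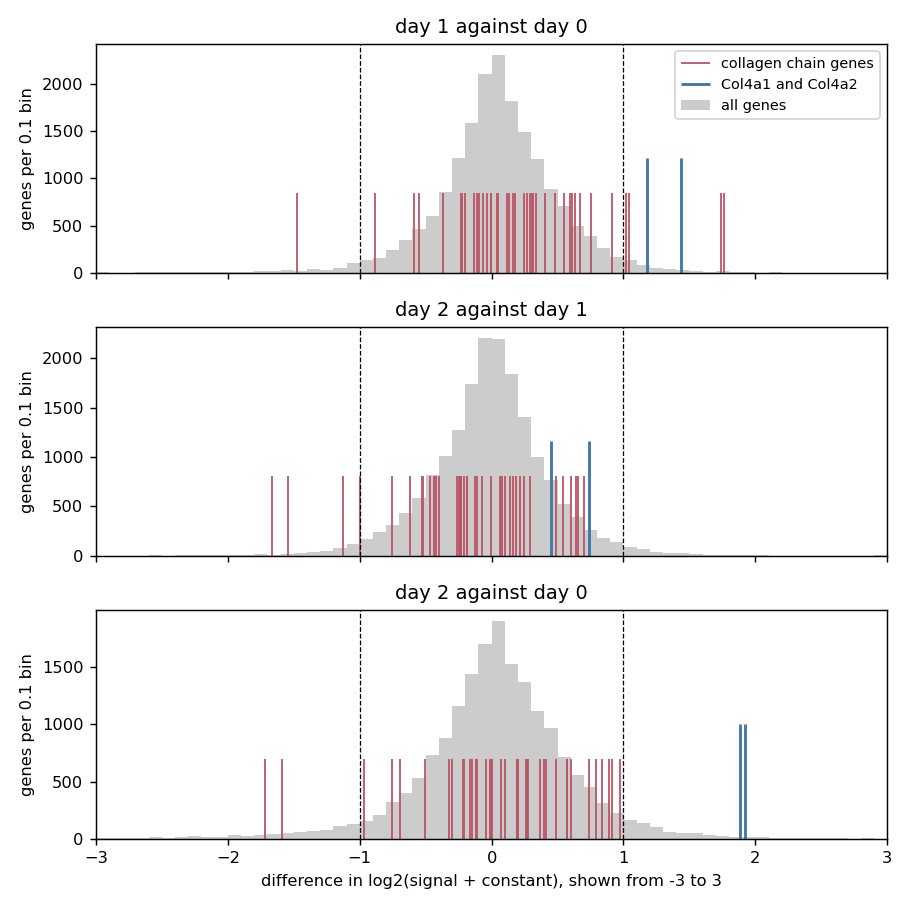
Number of genes per bin of 0.1 in the difference of log2(signal + constant) for the 18193 genes (grey), with a red line for each of the 40 collagen chain genes and a blue line for Col4a1 and for Col4a2, and dashed lines at 2-fold. The red lines spread over the body of the grey distribution, and at day 2 against day 0 the blue lines, at 1.89 and 1.92, lie to the right of all of them.

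The fibrillar class had 11 genes, 8 of them with a mean at the constant or above. Col5a1, whose chain helps to start type I fibrils, had 205 units at day 0, 290 at day 1 and 332 at day 2, a difference of 0.41 at day 1 and 0.57 at day 2 against day 0. A second probe set with signals of 148, 308 and 311 gave 0.84 and 0.85, and another, below the constant on each array, gave 0.51 and 0.25. All 3 were higher on both later days than at day 0, and none passed 2-fold. Col5a2 had 78.4, 105 and 78.7, and Col5a3, another type V chain, 171, 151 and 125. On these probe sets Col5a2 was at 0.0032 and Col5a3 at −0.32 at day 2 against day 0, and their other probe sets, below the constant on each array, gave 0.28 and −0.67.

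The type I and III chains, the main collagens of fibroblasts and bone, were near or below the constant. Col1a1 had a signal of 36.2 on day 0, 33.8 on day 1 and 26.3 on day 2, and no probe set of it reached the constant. Col1a2 had 96.8, 102 and 127 on its brightest probe set, a difference of 0.26 at day 2 against day 0. Its other probe sets gave −0.47 and 0.22, the latter below the constant on each array. Col3a1 was at 57.3 at day 0 and below the constant at day 1 (5.4) and day 2 (13.9), with −0.88 at day 1 against day 0. Its other probe set (14.1, 29.9 and 2.5) gave 0.29 there. Of 12 listed fibroblast and feeder markers other than collagens, 11 had a probe set and 3 (Thy1, Pdgfrb and Pdgfra, the last also among the endoderm markers) had a mean at the constant or above. Summed over the 11, their signals came to 690 at day 0, 672 at day 1 and 558 at day 2, and 8, 9 and 8 of the 11 were below the constant on these days. Thy1, a surface protein of fibroblasts and also of other cells, carried the lower sum, at 400, 275 and 89.3 (−1.65 at day 2 against day 0, the one of the 11 past 2-fold), and the other 10 summed to 290, 398 and 468. The sum without Thy1 was taken after its values were seen, and the part of these markers in the collagen values was not tested. Dcn and Lum, which encode proteoglycans of fibroblast matrix, had signals of at most 15.5 and 52.1.

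The cartilage fibril chains differed from one another. Col2a1, the main collagen of cartilage, was read by a single probe set, at 167 at day 0, 24.1 at day 1 and 11.9 at day 2. It was above the constant at day 0 only, and the difference was −1.48 at day 1 and −1.72 (3.29-fold lower) at day 2 against day 0. Col11a1 had 47.5, 157 and 97.8, above the constant on the later days only, with 1.04 at day 1 and 0.57 at day 2 against day 0. Its other probe set, with 56.7, 64.4 and 50.1, gave 0.10 and −0.09. Col11a2, which forms type XI collagen with it, had 42.2, 87.3 and 114, or 0.55 and 0.79. Col27a1 had 42.0, 271 and 56.0, and a difference of 1.74 at day 1 but 0.19 at day 2 against day 0. The second probe set of Col27a1, at 19.0, 109 and 82.1, was also highest at day 1 and gave 1.14 and 0.88. Col24a1 stayed below the constant throughout.

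Markers of cartilage cells lay near the constant, 4 of the 5 with a mean at it or above and none past 116 on any array. Their 5 genes (Sox9, Acan, Matn1, Matn3 and Comp) together had signals summing to 386 at day 0, 398 at day 1 and 281 at day 2. Sox9, the transcription factor that drives Col2a1 in cartilage, was at 36.0, 85.5 and 41.9, above the constant at day 1 alone. Neither it nor the other 4 passed 2-fold in any comparison, and their part in the Col2a1 and Col9a2 values was not tested.

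Fibril-associated chains numbered 9, with 7 at the constant or above. The type IX chains, which coat type II fibrils as a trimer of the 3 gene products, gave unlike values. Col9a1 had 81.0 units at day 0, 162 at day 1 and 173 at day 2, or 0.67 and 0.74 against day 0. Its other probe set, below the constant on each array, gave 0.02 and −0.19. Col9a2 had 120, 61.0 and 2.5, lower on each later day, with −0.59 at day 1 and −1.59 (3.01-fold lower) at day 2 against day 0, on its single probe set. Col9a3 was below the constant with all 3 of its probe sets.

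Col16a1, a chain of fibrillin-rich and type II matrices, had 87.1 at day 0, 186 at day 1 and 210 at day 2. Its 0.89 at day 2 against day 0, from a single probe set, was the largest positive difference among the 23 genes whose mean reached the constant. Col12a1, which decorates type I fibrils in tendon, had 17.8, 194 and 23.0 and a difference of 1.76 at day 1 against day 0. Its other 3 probe sets were below the constant on each array and gave −0.68, −0.02 and 0.01, so a single reading carries that difference. Col14a1 (62.8, 66.1 and 51.1), Col20a1 (58.6, 88.7 and 81.9) and Col22a1 (129, 129 and 104) stayed within 2-fold with each of their probe sets. Col19a1 did not reach the constant.

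**Figure D4:**
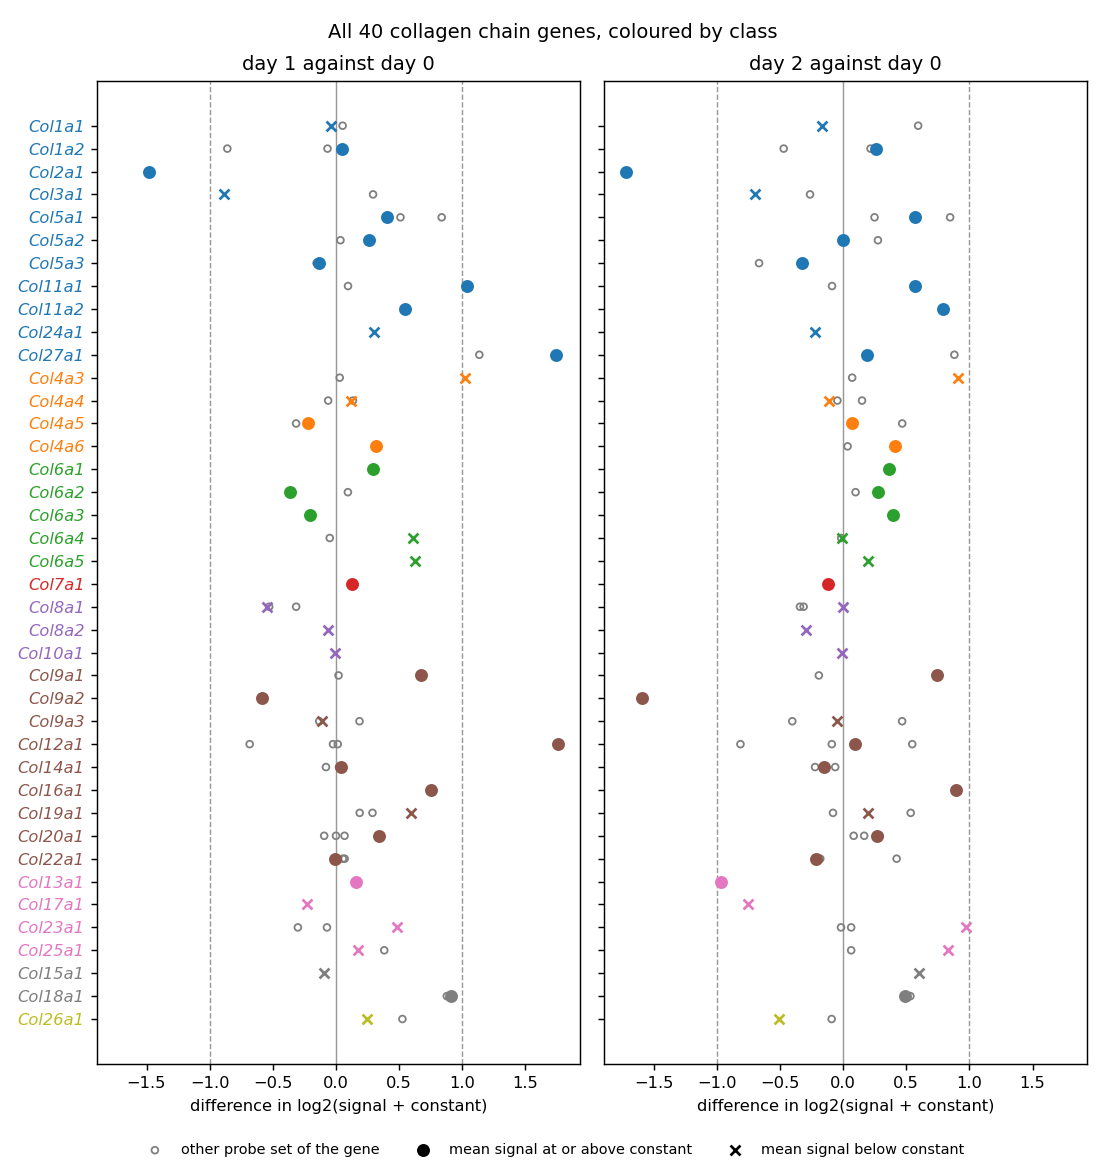
Difference in log2(signal + constant) for day 1 against day 0 (left panel) and day 2 against day 0 (right panel) for all 40 genes, coloured by class, with filled points for genes with a mean at the constant or above, crosses for dimmer genes, open circles for their other probe sets and dashed lines at 2-fold. Col2a1 and Col9a2 lie left of −1 at day 2, and no point lies right of 1 there.

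The beaded filament chains of type VI collagen stayed within 2-fold. Col6a1 had a signal of 44.7 on day 0, 67.1 on day 1 and 73.7 on day 2, Col6a2 206, 148 and 262, and Col6a3 61.8, 46.4 and 99.2. The trimer needs these 3 chains, and each had its highest signal at day 2, at 0.37, 0.28 and 0.40 against day 0. The other probe set of Col6a2 (173, 189 and 190) gave 0.10. Col6a4 and Col6a5 did not reach the constant. Col7a1, the anchoring fibril of skin, had 124, 141 and 110, a difference of −0.12 at day 2 against day 0.

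The remaining type IV chains lay around or below the constant. Col4a3, a chain of the mature kidney filter, had 9.1 at day 0, 75.9 at day 1 and 66.3 at day 2, or 1.02 at day 1 and 0.91 at day 2 against day 0. Its mean of 50.4 lay below the constant, and its other probe set, under 10 on each array, gave 0.03 and 0.07. Col4a4, its partner in that trimer, had at most 16.6 on its brightest probe set. Col4a5 (59.5, 43.0 and 65.4) and Col4a6 (41.6, 65.3 and 74.0) lay around the constant and stayed within 2-fold with both of their probe sets.

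Membrane-spanning chains were mostly dim. Col13a1, which acts at cell adhesion sites and the neuromuscular junction, had 152 at day 0, 176 at day 1 and 50.4 at day 2, so the lowest value came last. The difference was −0.97 at day 2 against day 0 and −1.13 at day 2 against day 1, on a single probe set. Col17a1, the collagen of hemidesmosomes in epithelium, had 43.6, 29.0 and 3.1 and stayed below the constant. Col23a1 (78.9) and Col25a1 (88.7) passed the constant at day 2 alone, with 0.97 and 0.83 against day 0. The other 2 probe sets of Col23a1 gave 0.06 and −0.02, and the other of Col25a1 gave 0.06, all of them below the constant on each array.

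The dimmest chains complete the set. Of the 17 genes with a mean below the constant, 6 passed it on at least 1 array with some probe set: Col3a1, Col4a3, Col8a2 (56.9 at day 0), Col23a1, Col25a1 and Col26a1 (58.2 at day 1). The other 11 (Col10a1, Col15a1, Col17a1, Col19a1, Col1a1, Col24a1, Col4a4, Col6a4, Col6a5, Col8a1 and Col9a3) did so with no probe set on any array. Col15a1, the closest relative of Col18a1, was at 16.7, 12.0 and 54.5. For 26 of the 40 genes there were several probe sets, and among these 65 probe sets the pooled SD within a gene was 0.42 at day 1 and 0.37 at day 2, both against day 0. Col28a1 and Col6a6 had no probe set of their own and are not analysed here.

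Genes that fold and modify collagen in the endoplasmic reticulum were mostly measured above the constant, 16 of the 19 with a probe set (20 were listed) by their mean. At day 2 against day 0, 2 of the 19 were at least 2-fold higher and 0 lower, against 4.05% and 4.3% of all genes, with a median of 0.14 against 0.04 for all genes. Serpinh1, the collagen chaperone Hsp47, had 1210 units at day 0, 2763 at day 1 and 3711 at day 2, a difference of 1.57 at day 2, and its other probe set gave 2.22. P4ha2, a subunit of prolyl 4-hydroxylase, which stabilises the triple helix, had 240, 367 and 603, or 1.16. Both were higher on each later day. P4ha1, the more widely used form of that subunit, was at 0.41, and P4hb, the shared partner of both, at 0.39. Of the lysyl hydroxylases, Plod3 was at 0.67 and Plod1 and Plod2 at −0.54 and −0.64, each within 2-fold. The other probe set of Plod1, with a mean below the constant, gave 0.16, and that of Plod2 gave −0.40. P3h2, a prolyl 3-hydroxylase, had 23.0, 155 and 19.5 and passed 2-fold at day 1 alone (1.42). P3h3, of the same family, had 75.5, 22.6 and 113 and was within 2-fold of day 0 on both days, but 1.10 higher at day 2 than at day 1.

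Genes of propeptide cleavage and crosslinking differed in direction. Of 13 listed genes 10 had a probe set, with 1 at least 2-fold higher and 2 lower at day 2 against day 0 (4.05% and 4.3% of all genes) and a median of −0.02, against 0.04 for all genes. Pcolce2 and Pcolce encode enhancers of the protease that trims fibrillar procollagens. Pcolce2 had 925 at day 0, 361 at day 1 and 60.8 at day 2, a difference of −3.07 (8.41-fold lower) at day 2 against day 0. Pcolce had 3185, 3448 and 1013, or −1.60, and its other probe set gave −1.53. The protease itself, Bmp1, had 27.0, 102 and 245, or 1.86, while its other 2 probe sets, below the constant on each array, gave 0.47 and −0.11. Thus the enhancers were lower at day 2 and 1 probe set of the protease higher. Loxl1, a lysyl oxidase that crosslinks matrix, was at −0.97 at day 2. Lox itself, at 5.3, 77.3 and 3.9, was above the constant at day 1 alone (1.12), and its mean of 28.8 lay below it. Its other probe sets, below the constant on each array, gave −0.08 and 0.24 at day 1 against day 0.

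**Figure D5:**
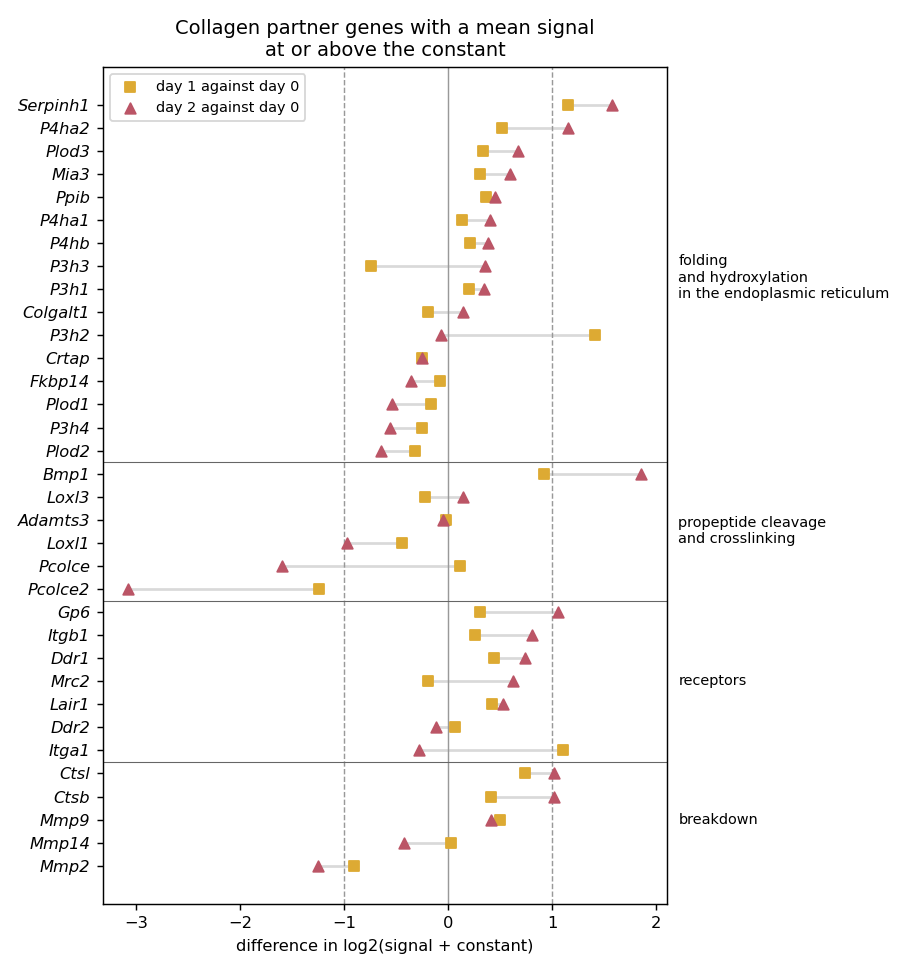
Difference in log2(signal + constant) against day 0 for the collagen partner genes with a mean signal at the constant or above, with squares for day 1 and triangles for day 2, grouped by role, and dashed lines at 2-fold. Serpinh1, P4ha2, Bmp1, Gp6, Ctsl and Ctsb lie right of 1 at day 2, the last 3 by less than 0.1, and Pcolce, Pcolce2 and Mmp2 lie left of −1.

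Among collagen receptors 9 of 10 had a probe set, and at day 2 against day 0, 1 was at least 2-fold higher and 0 lower (4.05% and 4.3% of all genes), with a median of 0.52 against 0.04. That gene was Gp6, the platelet receptor, dim at 22.6 at day 0, 41.4 at day 1 and 107 at day 2 (1.06). The bright members were Ddr1, a receptor tyrosine kinase for collagen, with 1896, 2602 and 3196 (0.74 at day 2), and Itgb1, the shared β subunit of collagen-binding integrins, with 1156, 1399 and 2062 (0.81). The other Ddr1 probe sets, all with means above the constant, ran from −0.16 to 1.39 at day 2. Those of Itgb1 with means above it gave 0.59 and 0.43, and the dimmer ones ran from −0.32 to 0.13. Itga1, the partner of Itgb1 for type IV collagen, had 97.3, 273 and 70.8 and passed 2-fold at day 1 alone (1.10). Its other probe set gave 0.02, but at 4.6, 5.4 and 3.7 it was too far below the constant to show a difference. Of 8 genes of collagen breakdown, 2 were at least 2-fold higher and 1 lower at day 2, beside the same shares of all genes (4.05% and 4.3%), with a median of 0.17 against 0.04. The cathepsin genes Ctsl (9199, 15404 and 18667) and Ctsb (1335, 1795 and 2754) were at 1.02 and 1.01 at day 2, and the second probe set of Ctsb gave 0.87. Mmp2, a gelatinase, had 234, 99.4 and 66.0 (−1.25), but −0.10 on its other probe set. At day 1 against day 0, 2 of 19 folding genes, 1 of 10 propeptide genes, 1 of 9 receptors and 1 of 8 breakdown genes were at least 2-fold higher. Of the propeptide genes 1 was lower. Of all genes, 2.07% were higher and 2.02% lower. The higher ones were Serpinh1 (1.15), P3h2, Lox, Itga1 and Ctsk (1.31, with signals of 6.7, 99.2 and 44.5 in day order), and the lower one was Pcolce2 (−1.24). Lox and Ctsk had means below the constant (28.8 and 50.1).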

How the data were processed

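Total RNA from 3 samples, 1 each at day 0, day 1 and day 2 of a conditional Pou5f1 knockout, was hybridised to Affymetrix arrays. The deposited values are intensities, MAS5 signals on a linear scale per the submitters' processing notes and the values themselves. Software version and settings are not given in the sources used here. The day 2 column holds 64 control probe sets more than the others, and they were left out, leaving 45037. Whether that array was processed apart is not known, and each day 2 difference rests on it.

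Arrays were scaled to a common 2% trimmed mean, which they already shared (498 on each). The constant, the 40th percentile of all signals, was added before log2. Probe sets were named by the platform annotation (34945 with 1 gene, 932 with several, 9160 with none). No filter on dim probe sets was applied, so that each chain is counted. With 1 array a day no test was run, and the array number limits the precision of every value. Protein sequences are not used here. The counting steps were tested on simulated data, with changes placed only in bright genes and noise set below the spread between probe sets. That test does not cover counts among dim chains. Named were each chain and Pou5f1, and partner genes past 2-fold at day 1 or day 2 against day 0 with a mean at the constant or above or, failing these, the 2 with the largest difference. Further partner genes and the markers were named for their role after their values were seen. The chains and lists were chosen with earlier results of these data known. Python 3.11.15, pandas 2.3.3, numpy 2.4.6 and scipy 1.17.1 were used. Alternatives were another constant, filter, scaling, probe set choice and summary.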

Additional observations from a re-analysis of the deposited data

How the results depend on the processing

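The counts of chains past 2-fold are small and depend on the constant and on dim probe sets. With 0.5 times the constant, 5 chains (Col11a2, Col16a1, Col23a1, Col25a1 and Col4a3) were higher and 5 lower at day 2 against day 0, where 7.04% and 6.6% of all genes were. It also gave 2 lower at day 1 against day 0 (Col2a1 and Col3a1) and 1 higher at day 2 against day 1 (Col15a1). These compare with 3.83% and 3.86% of all genes. With 2 times the constant, 2 chains were higher at day 1 against day 0 (0.808% of all genes) and 2 lower at day 2 against day 1 (1.01%). Only 4 chains had a mean at the 60th percentile or above; of these 0 passed 2-fold in any comparison, with medians of 0.53 for day 2 and 0.58 for day 1 against day 0. Quantile normalisation left 2 chains higher at day 1 (1.68% of all genes). The mean over the probe sets of a gene left 1 (Col27a1) higher at day 1 (1.24%) and 2 lower at day 2 against day 1 (1.53%). Without the probe sets marked _x_at, _s_at or _a_at, which removed Col2a1, 1 chain (Col9a2) was lower at day 2 (4.03%) and 0 at day 1 (2%) against day 0. In that setting Col12a1 was read from another probe set and turned to −0.68 at day 1 against day 0. Col27a1 passed 2-fold at day 1 in all 7 alternatives that gave it a value, Col2a1 in all 6 and Col9a2 at day 2 in all 7. Some of these alternatives could not move the value. A mean filter keeps or drops a gene without changing it. Col2a1 and Col9a2 have 1 probe set each, so the mean over probe sets returned the same value. These counts therefore do not measure how firm a reading is. Col11a1 passed 2-fold at day 1 in 4 of 7 and Col9a2 at day 2 against day 1 in 4 of 7. Col4a3 lost its 2-fold difference at day 1 with 2 times the constant, quantile normalisation, ribosomal scaling and the mean over probe sets, and both mean filters removed it.

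For the partner lists at day 2 against day 0, the breakdown list had 1 gene higher with 2 times the constant, with quantile normalisation and without _x_at, _s_at and _a_at probe sets. It had 0 higher with equal medians of ribosomal protein genes and with the mean over probe sets. It had 0 lower with 2 times the constant, with the mean over probe sets, without those probe sets and at the 60th percentile filter, where its median was 1.01. The propeptide list had 0 higher with the mean over probe sets and at the 60th percentile, and 1 lower without those probe sets. Its median was −0.51 with the filter at the constant and −1.60 at the 60th percentile. The receptor list had 0 higher with 2 times the constant and at the 60th percentile, and the folding list 1 higher without those probe sets. Beyond the construction of each alternative the cause was not tested. The other 133 values for counts and medians stayed within 1.5 times their count or within the spread between probe sets. That spread is one between single probe sets and is larger than the chain medians themselves, so a median could change sign and still be counted here. The chain median for day 2 against day 1 went from −0.16 to 0.15 at the 60th percentile filter. Without _x_at, _s_at and _a_at probe sets, that for day 2 against day 0 turned from positive to slightly negative. Staying within the spread therefore does not show that a median is stable. No paired analysis was possible because each day has 1 array. The dim signals of 17 of the 40 chains limit what can be read from them.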

Other observations

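Several collagen chain genes lie next to each other on mouse build GRCm38.p6, with no protein-coding gene between them, and their values are given side by side. Col4a1 and Col4a2, which share a region of chromosome 8, were at 1.89 and 1.92 for day 2 against day 0. The like-arranged pairs of the other type IV chains were at 0.91 for Col4a3 and −0.11 for Col4a4 on chromosome 1, and at 0.07 for Col4a5 and 0.41 for Col4a6 on chromosome X. Col3a1 and Col5a2 on chromosome 1 were at −0.70 and 0.0032, and Col9a1 and Col19a1 on the same chromosome at 0.74 and 0.20. Col6a1 and Col6a2 on chromosome 10 were at 0.37 and 0.28, and Col6a4 and Col6a5 on chromosome 9 at −0.01 and 0.20. No member of these pairs other than Col4a1 and Col4a2 passed 2-fold at day 2.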
